A study of Mus musculus with 8 samples.

Results

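The immunity-related GTPases (IRG proteins) are a family of interferon-inducible GTPases, and 7 of its mouse genes, Igtp, Irgm1, Irgm2, Iigp1, Tgtp1, Tgtp2 and Ifi47, were examined here in injured heart. They were picked by gene symbol from 16547 genes with values in all 8 libraries, and the choice was made with earlier results of the same libraries known. Their levels and fold changes are therefore given as a description, without a test of the family. All 7 passed the filter on low counts that left 13953 genes for testing.

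All 4 groups were hearts of mice (Mus musculus) with cardiac ischemia-reperfusion, an injury in which blood flow is stopped and restored. They received phosphate-buffered saline (labelled PBS) or 1 of the engineered protein nanocages labelled iFTn-M4, iFTn-R4 and iFTn-MR4, which the series title presents as superoxide-scavenging nanozymes. Treatment was given as 2 doses every other day, at 2.5 mg/kg protein in the nanocage groups. RNA was taken from the injured cardiac tissue after 3 days. Strain, age and genotype were not in the labels, no uninjured heart was analysed here, and the labels do not say whether the 2 libraries of each group came from separate animals. P-values therefore measure only the spread between these samples. Total expected counts were 13618588 to 15729385 per library. The PBS libraries were deposited in a table of their own, so PBS and nanocage groups also differ in the table they come from.

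IRG genes are switched on mainly by interferon gamma, which signals through its receptor and the kinases Jak1 and Jak2. The promoter elements of this response include gamma-activated sites (GAS) and interferon-stimulated response elements (ISRE), which Irf1 and related factors bind. IRG proteins of the GKS class are effectors that coat and rupture the vacuoles in which Toxoplasma gondii and some bacteria live. Those of the GMS class (named, like GKS, for residues of the GTP-binding loop) sit on the cell's own membranes and hold the effectors inactive there. Interferon-stimulated genes are also known to be induced in the infarcted heart without infection.

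Of the 7 genes, 6 lie on chromosome 11 in the RefSeq annotation of GRCm38.p6. Irgm1, Tgtp1, Tgtp2 and Ifi47 lie among 8 IRG genes between 48865245 and 49096987, a stretch of 231743 bases. Igtp and Irgm2 lie beside Gm12250 between 58183843 and 58222783.

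Since the family is known for its interferon control, the stretch of each promoter that holds GAS or ISRE letters is shown for the chromosome 11 members. Sequences are from RefSeq (GRCm38.p6), 5′ to 3′ on the gene's strand. Capitals mark matches to the GAS pattern TTCNNNGAA and the ISRE core GAAANNGAAA. The Ifi47 line holds no match and is shown for contrast.
Igtp (chr11:58199502-58199551, plus strand): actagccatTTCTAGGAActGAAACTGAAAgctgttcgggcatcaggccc
Irgm2 (chr11:58214893-58214942, plus strand): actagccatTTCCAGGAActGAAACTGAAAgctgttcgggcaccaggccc
Tgtp1 (chr11:48992294-48992343, minus strand): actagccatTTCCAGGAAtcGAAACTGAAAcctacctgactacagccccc
Tgtp2 (chr11:49064253-49064302, minus strand): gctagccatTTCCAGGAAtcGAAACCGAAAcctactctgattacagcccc
Irgm1 (chr11:48871421-48871470, minus strand): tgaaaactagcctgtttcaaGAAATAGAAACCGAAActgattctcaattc
Ifi47 (chr11:49076507-49076556, plus strand): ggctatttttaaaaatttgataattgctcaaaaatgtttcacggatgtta

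Both strands of each RefSeq promoter window, from 250 bases before to 50 bases from the gene start on, were searched. Igtp, Irgm2, Tgtp1 and Tgtp2 each held 1 GAS match followed, after 2 bases, by 1 ISRE core match. The Irgm1 promoter held a pair of overlapping ISRE core matches and no GAS match, and that of Ifi47 held neither. Only 1 annotated start was searched for each gene, so matches near any other start would be missed. Iigp1 was not matched in the promoter table. Of 32851 promoters in the table searched, 8.3% held the GAS pattern, 3.44% the ISRE core and 0.454% both. Over the whole windows, Igtp and Irgm2 shared 82.3% of 300 bases and Tgtp1 and Tgtp2 shared 74.7%, against 55.3% to 62.7% in the other pairs of members. These matches are letters in a sequence; whether a factor binds there was not measured.

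**Figure D1:**
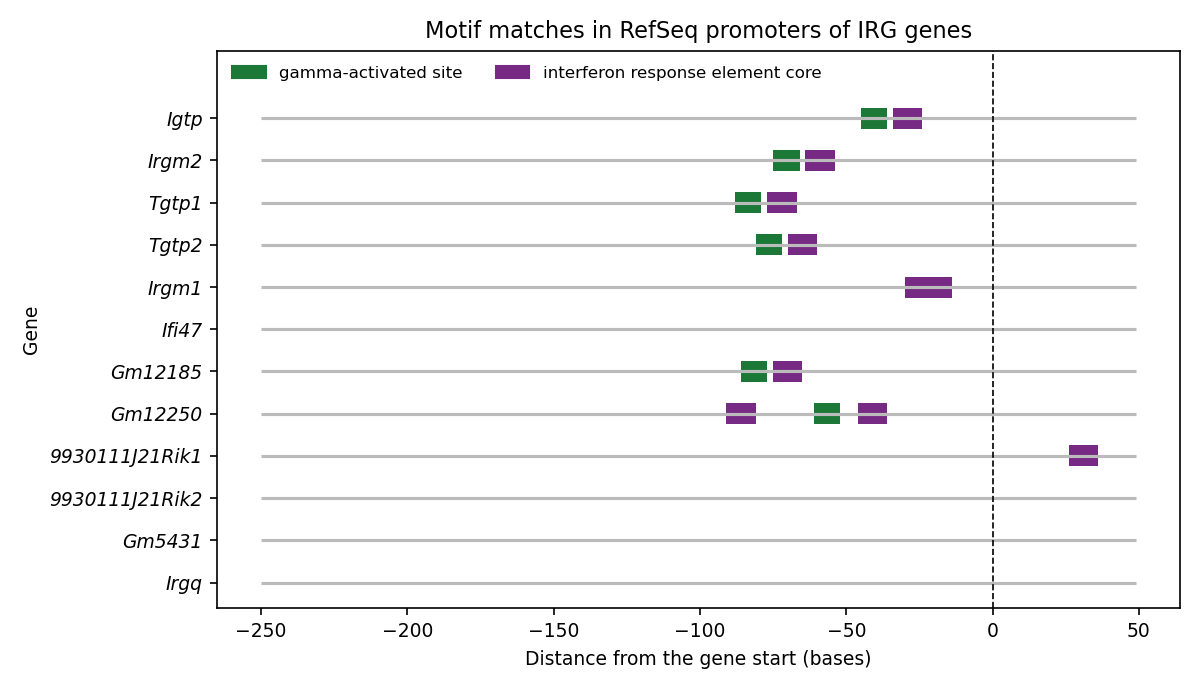
Positions of GAS matches (green) and ISRE core matches (purple) in RefSeq promoters of IRG genes, by distance in bases from the gene start (dashed line); grey lines are the searched windows. In Igtp, Irgm2, Tgtp1, Tgtp2 and Gm12185 a GAS match is followed by an ISRE core match, with 2 bases between them.

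Among these 7 genes every nanocage group except iFTn-R4 for the Tgtp pair lay below both PBS libraries, and iFTn-MR4 lay lowest throughout. Of all tested genes, 37.3% lay below both PBS libraries in iFTn-M4, 32.8% in iFTn-R4 and 39.9% in iFTn-MR4. Summed over the 7 genes, expression per transcript length (TPM) was 2236 and 2378 in PBS. It was 980.5 and 1159 in iFTn-R4, 306 and 243 in iFTn-M4, and 186 and 188 in iFTn-MR4. The family took 0.366% and 0.395% of all counts in PBS and 0.0284% and 0.0286% in iFTn-MR4. In whole tissue, fewer cells of a type and less RNA per cell cannot be told apart.

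The GMS genes are described first, in CPM (counts scaled to library size) for each gene's 2 libraries. Igtp, also called Irgm3, encodes a GMS regulator on the endoplasmic reticulum. It stood at 868 and 1040.5 CPM in PBS, 230.1 and 218 in iFTn-R4, 44.4 and 33.8 in iFTn-M4, and 28.7 and 24.5 in iFTn-MR4. The 4 groups did not overlap, and the order from PBS down to iFTn-MR4 was complete. Relative to PBS, Igtp was 24.4-fold lower in iFTn-M4, with a log2 fold change of -4.61 ± 0.15 (SE, edgeR fit of 8 libraries). It was the 5th lowest fold change of 13953 genes in that comparison. In iFTn-R4 the log2 fold change was -2.09 ± 0.14, and in iFTn-MR4 it was -5.16 ± 0.16, or 35.9-fold lower and the 9th lowest.

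Irgm1 encodes the regulator linked to autophagy and to the survival of haematopoietic cells. Its CPM were 454 and 529 in PBS, 177 and 189.6 in iFTn-R4, 88.0 and 58.0 in iFTn-M4, and 54.9 and 52.5 in iFTn-MR4. All groups were separate, but the iFTn-M4 libraries differed 1.52-fold, and the lower of them lay close to iFTn-MR4. The log2 fold changes against PBS were -1.42 ± 0.16, -2.75 ± 0.17 and -3.19 ± 0.17 for iFTn-R4, iFTn-M4 and iFTn-MR4.

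Irgm2 is the third GMS regulator, found on the Golgi apparatus. CPM values were 576 and 597 in PBS, 309 and 352 in iFTn-R4, 98.1 and 77.8 in iFTn-M4, and 72.7 and 65.0 in iFTn-MR4. Here iFTn-R4 kept more of the PBS level than for Igtp and Irgm1. The log2 fold change was -0.83 ± 0.12 in iFTn-R4, -2.74 ± 0.12 in iFTn-M4 and -3.09 ± 0.13 in iFTn-MR4.

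Iigp1 (Irga6) is the best studied GKS effector, which assembles on the vacuole of Toxoplasma gondii. It lies on chromosome 18, between 60373616 and 60392634, next to 3 further IRG genes. It stood at 1321 and 1375 CPM in PBS, 445 and 558 in iFTn-R4, 115 and 108 in iFTn-M4, and 75.1 and 78.0 in iFTn-MR4. No groups overlapped. The log2 fold changes against PBS were -1.43 ± 0.11 in iFTn-R4, -3.59 ± 0.12 in iFTn-M4 and -4.14 ± 0.12 in iFTn-MR4.

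Tgtp1 and Tgtp2, near-identical copies that both encode the effector Irgb6, shared reads. Their expected counts were not whole in 8 of 8 libraries (tolerance 1e-09), while the sum of the pair was whole in all 8. Tgtp1 received 30.6% to 38.9% of that sum. How the reads divide between the copies is an estimate, so the level of each is uncertain. Split counts also occurred for Iigp1 in 2 libraries and for Igtp and Irgm2 in 1 library each, and for Irgm1 and Ifi47 in 0.

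Tgtp1 stood at 137 and 149.6 CPM in PBS, 72.4 and 145 in iFTn-R4, 25.9 and 27.6 in iFTn-M4, and 14.6 and 22.9 in iFTn-MR4. Tgtp2 stood at 215 and 271 CPM in PBS, 126 and 234 in iFTn-R4, 58.8 and 50.2 in iFTn-M4, and 32.8 and 37.8 in iFTn-MR4. For both genes the second iFTn-R4 library lay within the PBS range and the first lay below it. The iFTn-R4 libraries differed 2.01-fold for Tgtp1 and 1.86-fold for Tgtp2, where 95% of genes at 5 CPM or more differed by less than 1.47-fold between the same libraries. Summed to 1 feature, the pair had log2 fold changes against PBS of -0.42 ± 0.24 in iFTn-R4, -2.25 ± 0.26 in iFTn-M4 and -2.84 ± 0.27 in iFTn-MR4. Without the second iFTn-R4 library the log2 fold change of iFTn-R4 against PBS was -1.0 for Tgtp1 and -0.96 for Tgtp2, and without the first it was 0.011 for Tgtp1.

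Ifi47 (Irgd) is a GKS protein whose part in vacuole attack is less well known. Its levels were 69.6 and 75.5 CPM in PBS, 35.8 and 49.2 in iFTn-R4, 29.8 and 18.6 in iFTn-M4, and 13.2 and 14.3 in iFTn-MR4. These groups did not overlap either, though the upper iFTn-M4 library and the lower iFTn-R4 library lay close together. Log2 fold changes against PBS were -0.77 ± 0.19 in iFTn-R4, -1.59 ± 0.20 in iFTn-M4 and -2.40 ± 0.21 in iFTn-MR4, the smallest of the 7 in the last 2.

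**Figure D2:**
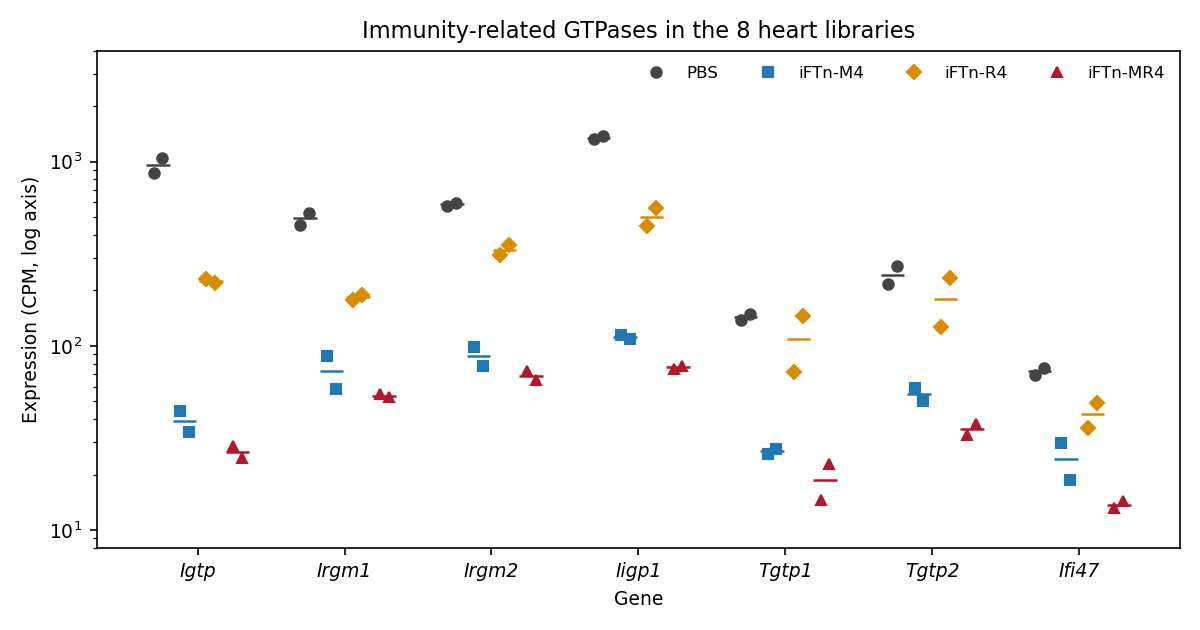
Expression of the 7 genes in CPM (log axis) in each library; points are libraries and short lines group means of 2. PBS lies highest and iFTn-MR4 lowest for each gene, and iFTn-R4 overlaps PBS for Tgtp1 and Tgtp2 only.

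Against PBS, 7 of 7 genes were called lower in iFTn-M4 at an adjusted p under 0.05 (edgeR quasi-likelihood test, Benjamini-Hochberg over 13953 genes), where 21.4% of all genes were called lower and 19.8% higher. In iFTn-R4, 5 of 7 were called lower against 15.4% of all genes (13.9% higher), and in iFTn-MR4 7 of 7 against 26.3% (24.6% higher). Nothing is read from these counts, since the genes were chosen with these contrasts known. The median log2 fold change of the 7 was -2.74, -0.83 and -3.09 in iFTn-M4, iFTn-R4 and iFTn-MR4, where that of all tested genes was 0.0040, -0.0030 and 0.0030. Tgtp1 and Tgtp2 were the ones not called in iFTn-R4, with 95% intervals of -0.99 to 0.19 and -0.96 to 0.085. Without the second iFTn-R4 library both were called, at -1.0 and -0.96. The call of Ifi47 in iFTn-R4 was lost without the second PBS library, at -0.71. It was also lost on TPM with pseudocounts of 1 and 0.1 (limma-trend adjusted p = 0.0743 and 0.0783). The 3 comparisons share the PBS libraries.

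**Figure D3:**
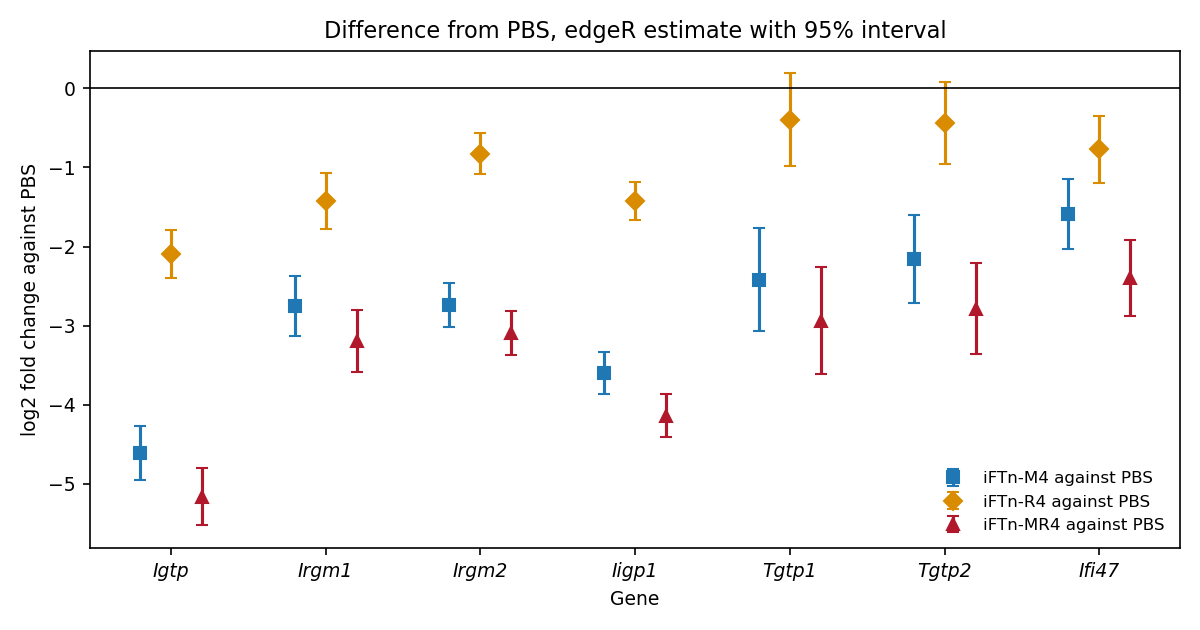
Log2 fold change against PBS for each gene and nanocage (edgeR estimate with 95% interval, fit of 8 libraries). Values run from -5.16 for Igtp in iFTn-MR4 to -0.40 for Tgtp1 in iFTn-R4, the latter with an interval across 0.

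Between the nanocages, the 7 genes were higher in iFTn-R4 than in iFTn-M4. Igtp was 5.73-fold higher, with a log2 fold change of 2.52 ± 0.14, and Iigp1 was 4.49-fold higher (2.17 ± 0.11). Irgm2 (1.91 ± 0.12) and Irgm1 (1.33 ± 0.16) lay between these and Ifi47 (0.81 ± 0.20). The Tgtp pair summed to 1 feature differed by 1.83 ± 0.25. In this comparison 7 of 7 were called higher against 3.43% of all genes (2.5% lower), and both iFTn-R4 libraries lay above both iFTn-M4 libraries for each of the 7, as they did for 3483 of the 13953 genes. Without the second iFTn-M4 library the calls of Tgtp1, Tgtp2 and Ifi47 were lost, at log2 fold changes of 2.07, 1.61 and 0.51. That fit leaves 1 library in iFTn-M4, and calls over all genes also fell in it. Tgtp1 was lost without either iFTn-M4 library, at an adjusted p of 0.0521 and 0.072 (edgeR). Ifi47 was lost without any 1 library other than iFTn-M4 replicate 1 or iFTn-R4 replicate 1, in 6 of 8 such fits. Its call was also lost with only the groups compared (edgeR adjusted p = 0.145) and with the length trend removed (edgeR adjusted p = 0.0554). On FPKM it was lost as well (limma-trend adjusted p = 0.0547).

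Against iFTn-M4, iFTn-MR4 was lower for each of the 7 genes in both libraries, by amounts that did not pass the adjusted test. Log2 fold changes ran from -0.35 ± 0.12 for Irgm2 to -0.81 ± 0.22 for Ifi47. Igtp differed by -0.56 ± 0.15 (95% interval -0.89 to -0.22) and Iigp1 by -0.54 ± 0.11 (-0.79 to -0.29). Here 0 of 7 genes were called by edgeR against 0.344% of all genes called lower and 0.0215% higher. At an unadjusted p under 0.05 there were 6 of 7, beside 2506 of the 13953 genes, and DESeq2 called 3 of 7, beside 2.53% of all genes. Across all genes, both iFTn-MR4 libraries lay below both iFTn-M4 libraries for 27.7%. The miss does not show that the 2 nanocages act alike. The unadjusted interval of Tgtp1 (-1.23 to 0.20) spans 0 and those of the other 6 genes lie below it. Intervals of genes chosen with these results known do not show a difference either.

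Against iFTn-R4, iFTn-MR4 was lower by -3.07 ± 0.15 (log2) for Igtp, -2.71 ± 0.12 for Iigp1, -2.26 ± 0.12 for Irgm2 and -1.77 ± 0.17 for Irgm1. The summed Tgtp pair differed by -2.42 ± 0.26 and Ifi47 by -1.63 ± 0.22. All 7 were called lower in edgeR against 14.6% of all genes (12.6% higher), and both iFTn-MR4 libraries lay below both iFTn-R4 libraries for each of them, as for 32.6% of all genes.

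Because the genes fell by unequal amounts, the make-up of the family differed between groups. Per transcript length, Igtp was the most abundant in PBS at 706 and 801 TPM, ahead of Iigp1 at 669 and 658. These neighbours did not overlap. Irgm1 followed at 347 and 384 TPM and Irgm2 at 249.6 and 244. Tgtp2 (119.5 and 142 TPM) stood above Tgtp1 (76.3 and 78.7), subject to the shared reads, and Ifi47 came last at 68.0 and 70.2. In iFTn-MR4 Irgm1 led at 44.8 and 42.9 TPM, narrowly above Iigp1 at 40.4 and 41.8, and Igtp had 24.97 and 21.5. In iFTn-M4 Irgm1 (72.9 and 48.4 TPM) and Iigp1 (63.1 and 59.8) overlapped. In iFTn-R4 Iigp1 led at 267 and 322 TPM ahead of Igtp at 222 and 202, while Irgm1 (159.9 and 164) and Irgm2 (159 and 175) overlapped.

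As a share of the summed TPM of the 7 genes, Igtp made up 31.6% and 33.7% in PBS, 22.6% and 17.4% in iFTn-R4, 12.9% and 12.5% in iFTn-M4, and 13.4% and 11.4% in iFTn-MR4. Ifi47 went the other way, from 3.04% and 2.95% in PBS to 7.31% and 7.99% in iFTn-MR4 and 10.3% and 8.12% in iFTn-M4. The ratio of summed GKS to GMS transcripts was 0.716 and 0.664 in PBS and 0.919 and 1.10 in iFTn-M4. In iFTn-R4 it was 0.811 and 1.14, and in iFTn-MR4 0.794 and 0.983. All nanocage libraries lay above both PBS libraries in this ratio, and the nanocage groups overlapped one another. The genes of a class did not move together. From PBS to iFTn-MR4 the share of Igtp fell, but those of the GMS genes Irgm1 (15.5% and 16.1% to 24.1% and 22.8%) and Irgm2 (11.2% and 10.3% to 18.2% and 16.2%) rose. Among GKS genes that of Iigp1 fell (29.9% and 27.7% to 21.8% and 22.3%), and those of the Tgtp pair and Ifi47 rose. The ratio therefore does not show a shift of 1 class as a whole.

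**Figure D4:**
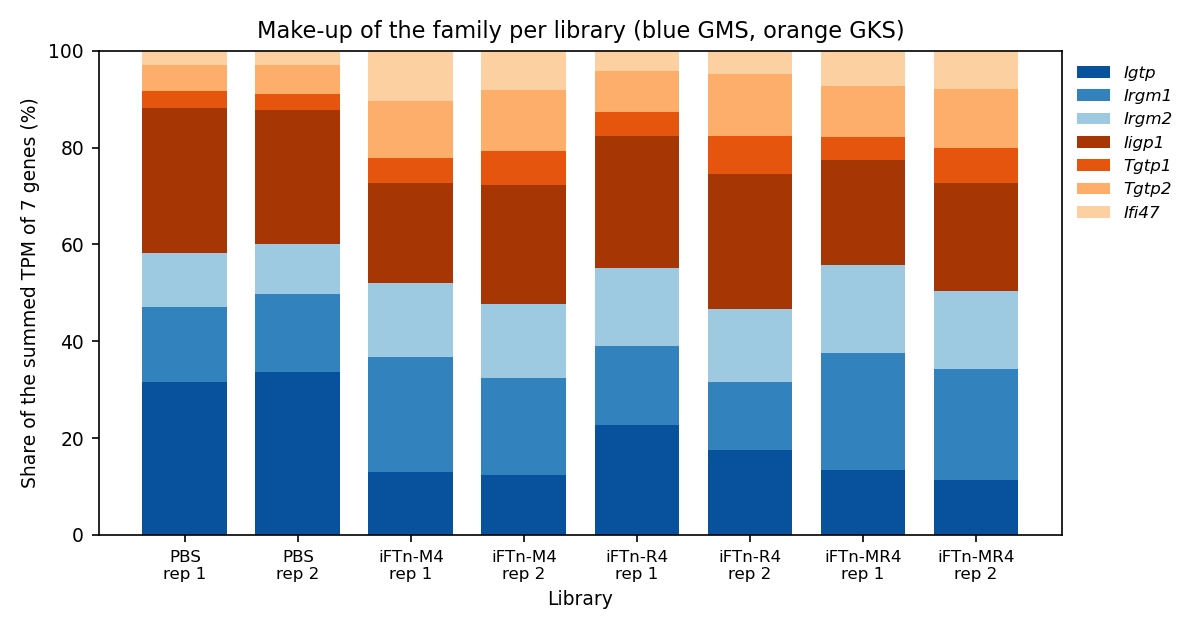
Share of each gene in the summed TPM of the 7 genes, in percent, for each library; blue shades are GMS regulators and orange shades GKS effectors. Igtp takes over 30% in both PBS libraries and under 14% in the iFTn-M4 and iFTn-MR4 libraries.

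The other IRG genes of the tables were described next. Of 10 such genes 9 were tested, and Irgc1 had too few counts. Called lower against PBS were 5 of them in iFTn-M4, 4 in iFTn-R4 and 7 in iFTn-MR4, and 1 was called higher in each. Of all genes 21.4%, 15.4% and 26.3% were called lower there, and 19.8%, 13.9% and 24.6% higher. Gm4841, on chromosome 18 between 60268301 and 60273267, differed most. It stood at 445 and 508 CPM in PBS, 109.6 and 93.4 in iFTn-R4, 5.37 and 5.24 in iFTn-M4, and 4.46 and 3.56 in iFTn-MR4. Its log2 fold changes against PBS were -2.23 ± 0.11, -6.49 ± 0.14 and -6.89 ± 0.15 in iFTn-R4, iFTn-M4 and iFTn-MR4, larger than those of Igtp in each. Groups were separate, with iFTn-R4 far above the other nanocages.

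Gm12250, which encodes Irgb10, an effector that also acts on bacterial membranes, had 127 and 162 CPM in PBS, 31.0 and 40.4 in iFTn-R4, 14.1 and 7.10 in iFTn-M4, and 7.03 and 3.79 in iFTn-MR4. It fell, with log2 fold changes of -2.02 ± 0.25, -3.77 ± 0.28 and -4.74 ± 0.31 in iFTn-R4, iFTn-M4 and iFTn-MR4. Its promoter held 1 GAS match and 2 ISRE core matches on the opposite strand. F830016B08Rik (-1.09 ± 0.13, -3.17 ± 0.15 and -3.36 ± 0.15) and Gm12185 (-1.94 ± 0.25, -3.94 ± 0.30 and -3.95 ± 0.31) also fell in each. Gm12185 had split counts in 8 libraries, and its promoter held the same GAS and ISRE spacing as the 4 members.

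The gene 9930111J21Rik1 was called higher than PBS in all 3 nanocages (0.93 ± 0.21, 0.86 ± 0.21 and 0.79 ± 0.22 in iFTn-M4, iFTn-R4 and iFTn-MR4). It had 11.8 and 15.7 CPM in PBS and 21.1 to 31.1 in the nanocage libraries. Its counts were split in 8 libraries, and these calls were lost without PBS replicate 1, and also without iFTn-M4 replicate 1, iFTn-R4 replicate 2 or iFTn-MR4 replicate 2 in the respective comparison (edgeR adjusted p 0.0601 to 0.106). The call in iFTn-R4 was also lost with the length trend removed (edgeR adjusted p = 0.0506). Its promoter held 1 ISRE core match after the gene start, and those of 9930111J21Rik2, Gm5431 and Irgq held neither pattern. The genes 9930111J21Rik2 and Gm5431 of the same stretch of chromosome 11, both also with split counts in 8 libraries, were called lower in iFTn-MR4 (-0.97 ± 0.28 and -0.58 ± 0.22). Both calls were lost without PBS replicate 2 or either iFTn-MR4 library, and that of Gm5431 also without PBS replicate 1, with DESeq2 and with the length trend removed. In iFTn-M4, 9930111J21Rik2 had -0.70 ± 0.27, which did not pass, but was called at -1.29 without iFTn-M4 replicate 1 (edgeR adjusted p = 0.00659). Gm4951 stood at 22.2 and 33.4 CPM in PBS, 12.6 and 25.2 in iFTn-R4, 13.02 and 5.58 in iFTn-M4, and 6.50 and 5.72 in iFTn-MR4, with overlap between PBS and iFTn-R4, between iFTn-R4 and iFTn-M4, and between iFTn-M4 and iFTn-MR4. It was called lower in iFTn-M4 (-1.58 ± 0.39) and iFTn-MR4 (-2.18 ± 0.41), the former call being lost without PBS replicate 2 or iFTn-M4 replicate 2 and standing at -2.32 without iFTn-M4 replicate 1. In iFTn-R4 it had -0.56 ± 0.36, which did not pass, but was called at -1.16 without iFTn-R4 replicate 2 (edgeR adjusted p = 0.0438). Irgq, a divergent member of the family that takes part in autophagy, had log2 fold changes of 0.03 ± 0.10, 0.08 ± 0.10 and 0.21 ± 0.10, none of which passed.

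Between iFTn-R4 and iFTn-M4, 4 of the 9 were called higher in iFTn-R4 (Gm12250, Gm12185, Gm4841 and F830016B08Rik). Without iFTn-M4 replicate 2 the calls of Gm12250 and Gm12185 were lost, at log2 fold changes of 1.34 and 1.97. That of Gm12185 was also lost without iFTn-M4 replicate 1, at 2.03. Calls over all genes also fell in both fits. Between iFTn-MR4 and iFTn-M4 none of the 9 was called by edgeR or DESeq2. Against iFTn-R4, 5 were called lower in iFTn-MR4. Of these, the call of Gm4951 was lost without iFTn-R4 replicate 2, at -1.04 in place of -1.62. It was also lost without either iFTn-MR4 library, at -1.73 and -1.55. Calls over all genes fell without either iFTn-MR4 library but not without iFTn-R4 replicate 2. Over all genes, 3.43% were called higher in iFTn-R4 than in iFTn-M4, and 14.6% lower in iFTn-MR4 than in iFTn-R4.

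The genes of interferon gamma signalling upstream of the family were then examined. Ifng itself had too few counts to be tested and was at 0 in 5 libraries. Of the 6 tested genes described here, 3 were called lower and 1 higher than PBS in iFTn-M4, 2 and 1 in iFTn-R4, and 3 and 2 in iFTn-MR4. These counts stand beside 21.4%, 15.4% and 26.3% of all genes called lower and 19.8%, 13.9% and 24.6% called higher. Irf1 stood at 122 and 126 CPM in PBS, 83.8 and 86.6 in iFTn-R4, 50.02 and 46.2 in iFTn-M4, and 46.8 and 55.2 in iFTn-MR4, so that the last 2 groups overlapped. It fell in iFTn-R4, iFTn-M4 and iFTn-MR4, with log2 fold changes of -0.55 ± 0.09, -1.37 ± 0.09 and -1.28 ± 0.09. The feedback inhibitor Socs1 fell as well (-1.83 ± 0.25, -2.07 ± 0.26 and -1.87 ± 0.26), from 8.21 and 10.2 CPM in PBS to 1.59 to 2.79 in the nanocage libraries.

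The receptor chains and kinases moved little. Ifngr1 had log2 fold changes of 0.09 ± 0.09, 0.26 ± 0.09 and 0.02 ± 0.09 in iFTn-M4, iFTn-R4 and iFTn-MR4, none of which passed. In iFTn-R4 it was called higher with library size alone (0.32, edgeR adjusted p = 0.0217) and with the length trend removed (0.35, edgeR adjusted p = 0.0449). Limma-trend called it higher in iFTn-R4 on TPM and FPKM and in iFTn-M4 on TPM. In iFTn-MR4 it was called with a replicate block and the length trend removed (0.27, edgeR adjusted p = 0.039). Ifngr2 rose in iFTn-MR4 (0.30 ± 0.07) and had -0.01 ± 0.07 and -0.13 ± 0.07 in iFTn-M4 and iFTn-R4. Jak1 was called higher in all 3 (0.22 ± 0.07, 0.32 ± 0.07 and 0.21 ± 0.07). Jak2 was called lower in iFTn-M4 (-0.23 ± 0.08) and iFTn-MR4 (-0.35 ± 0.08). The calls of Jak1 and Jak2 in iFTn-M4 were lost without any 1 library of PBS, iFTn-M4 or iFTn-MR4. Both were also lost with DESeq2 (DESeq2 adjusted p = 0.0531 and 0.131). Limma-trend lost that of Jak2 on TPM (-0.043, limma-trend adjusted p = 0.697) and FPKM (-0.21, limma-trend adjusted p = 0.0548). In iFTn-R4 the call of Jak1 was lost without PBS replicate 2, and in iFTn-MR4 without any PBS or iFTn-MR4 library or iFTn-M4 replicate 1. In iFTn-MR4 it was also lost with library size alone (edgeR adjusted p = 0.0521) and on FPKM (limma-trend adjusted p = 0.055). That of Jak2 in iFTn-MR4 was lost without iFTn-MR4 replicate 1 (edgeR adjusted p = 0.0533). With the trend of fold change on transcript length removed, all 3 calls of Jak1 were lost, at 0.025, 0.069 and 0.073 (edgeR adjusted p 0.834, 0.592 and 0.471). Between iFTn-R4 and iFTn-M4, Irf1 alone of the 6 was called higher in iFTn-R4 (edgeR).

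Guanylate-binding proteins are larger interferon-inducible GTPases that act on the same vacuoles. Of 10 tested genes, 9 fell against PBS in iFTn-M4, 5 in iFTn-R4 and 10 in iFTn-MR4, and 0 rose. Over all genes 21.4%, 15.4% and 26.3% were called lower against PBS, and 3.43% higher in iFTn-R4 than in iFTn-M4. Of the genes called in iFTn-R4 and iFTn-MR4, 1 had low counts, at 0.76 and 1.19 CPM in PBS and 0.31 and 0.066 in iFTn-R4. In iFTn-M4, iFTn-R4 and iFTn-MR4 the log2 fold changes were -2.19 ± 0.16, -1.13 ± 0.15 and -2.7 ± 0.17 for Gbp2, and -1.47 ± 0.14, -0.81 ± 0.14 and -2.1 ± 0.15 for Gbp3. Those of Gbp6, with counts split in 8 libraries, were -3.17 ± 0.21, -1.15 ± 0.19 and -3.12 ± 0.21. The count of 5 in iFTn-R4 was lower without PBS replicate 2 and higher without iFTn-R4 replicate 2, while calls over all genes fell in both fits. Between iFTn-R4 and iFTn-M4, 9 were called higher in iFTn-R4. Fewer were called without either iFTn-M4 library or either iFTn-MR4 library, and calls over all genes also fell in each of these fits.

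The Atg8 conjugation proteins, which direct IRG effectors to vacuoles, showed no shared direction. Of 10 tested genes 8 did not pass in each comparison with PBS, where 41.2%, 29.4% and 50.9% of all genes were called in either direction. Atg3, a conjugating enzyme, was called lower (-0.36 ± 0.10, -0.36 ± 0.10 and -0.56 ± 0.11 in iFTn-M4, iFTn-R4 and iFTn-MR4). Map1lc3b, an Atg8 protein, was called higher (0.42 ± 0.11, 0.38 ± 0.11 and 0.56 ± 0.11). Both calls in iFTn-M4 were lost without PBS replicate 1 or iFTn-M4 replicate 2 (edgeR adjusted p 0.0808 to 0.165). Both in iFTn-R4 were lost without PBS replicate 1 or iFTn-R4 replicate 2, that of Atg3 also without either iFTn-MR4 library and that of Map1lc3b without PBS replicate 2 (edgeR adjusted p 0.0632 to 0.178). Atg5 had -0.26 ± 0.10, -0.19 ± 0.10 and -0.20 ± 0.10, none of which passed. Among 4 genes of ubiquitin tagging at the vacuole, the interferon-inducible ubiquitin ligase Trim21 fell in iFTn-M4, iFTn-R4 and iFTn-MR4 (-1.01 ± 0.11, -0.58 ± 0.11 and -1.3 ± 0.11). The autophagy receptor Nbr1 was called higher (0.44 ± 0.09, 0.38 ± 0.09 and 0.46 ± 0.09), a call lost in iFTn-R4 without either PBS library or iFTn-R4 replicate 2. With the length trend removed it was lost in iFTn-M4 (0.29, edgeR adjusted p = 0.0638) and iFTn-R4 (0.16, edgeR adjusted p = 0.323), as was that of Atg3 in both (-0.17 and -0.25, edgeR adjusted p 0.211 and 0.112). The ubiquitin ligase Traf6 had 0.09 ± 0.10, 0.26 ± 0.10 and 0.05 ± 0.10, none of which passed.

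**Figure D5:**
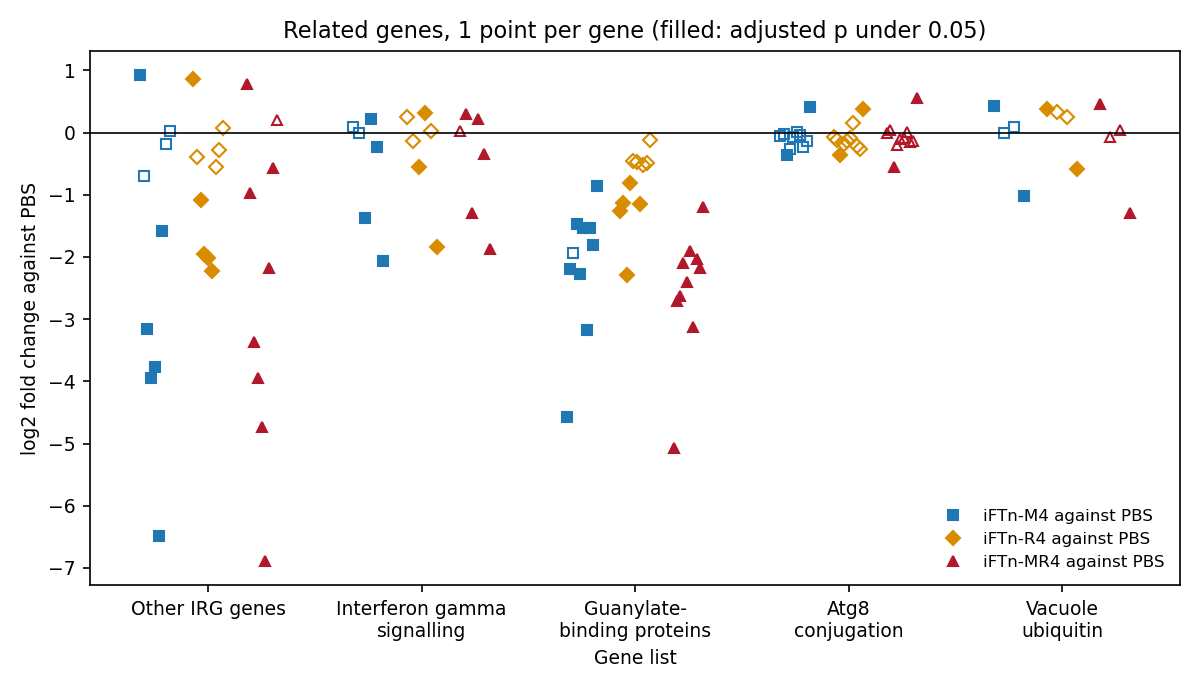
Log2 fold change against PBS of each tested gene in 5 lists related to the IRG family, by nanocage; filled points have an edgeR adjusted p under 0.05. The other IRG genes reach down to -6.89, the guanylate-binding proteins lie below 0, and the Atg8 conjugation genes lie near 0.

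Among 11862 genes with at least 5 CPM in their highest group, those whose profile over the 8 libraries lay nearest to the mean of the 7 were found by the root mean square difference in centred log2 CPM. Batf2, an interferon-inducible transcription factor, came first at 0.174, where the median over these genes was 1.37. It had 17.6 and 21.6 CPM in PBS, 6.63 and 9.82 in iFTn-R4, 2.86 and 2.21 in iFTn-M4, and 1.81 and 2.38 in iFTn-MR4. The schlafen gene Slfn4 (0.216), F830016B08Rik (0.219), Plac8 (0.229) and Gbp6 (0.246) followed. The 7 genes themselves lay between 0.147 for Irgm2 and 0.741 for Igtp. Ifi47 lay at 0.509, Iigp1 at 0.320, Tgtp1 at 0.317 and Tgtp2 at 0.305. The other genes were picked as the nearest of 11862 and the 7 were not picked by distance. Their distances therefore cannot be compared. Profiles were not scaled, so the size of a gene's change counts in its distance.

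Markers of cell types that could carry IRG transcripts were summed in TPM beside these results. The heart label was met by the 8 cardiomyocyte markers, which summed to 52390.3 and 53717 TPM in PBS, 60517 and 61098 in iFTn-M4, 44019 and 41865 in iFTn-R4, and 66978 and 66811 in iFTn-MR4. These groups were separate, and among the nanocages their order was the opposite of that of the IRG genes. With PBS included it was not, since the cardiomyocyte sum and the IRG sum were both higher in PBS than in iFTn-R4. Of the 8, 4 were called higher and 1 lower than PBS in iFTn-M4, 2 and 4 in iFTn-R4, and 6 and 1 in iFTn-MR4 (edgeR). The 10 macrophage and monocyte markers summed to 4063 and 2432 TPM in PBS, 4396 and 4051 in iFTn-M4, 3003 and 2974 in iFTn-R4, and 3382 and 3366 in iFTn-MR4, with none at 0. The nanocage libraries other than 1 of iFTn-M4 lay between the PBS libraries. Of the 10, 2 were called higher and 3 lower in iFTn-M4, 1 and 5 in iFTn-R4, and 2 and 5 in iFTn-MR4. Among all genes, 19.8% were called higher and 21.4% lower in iFTn-M4, 13.9% and 15.4% in iFTn-R4, and 24.6% and 26.3% in iFTn-MR4. The 8 endothelial markers summed to 675 to 707 TPM in PBS and 818 to 1048 in the nanocage libraries. The 7 fibroblast markers summed to 2131 and 2246 TPM in PBS and 3500 to 4848 in the nanocage libraries.

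The 6 neutrophil markers summed to 501 to 537 TPM in PBS and 546 to 747 in iFTn-R4. In iFTn-M4 they summed to 89.2 to 269 and in iFTn-MR4 to 121 to 175. Their sum was thus below PBS in the same 2 nanocage groups in which the IRG genes were lowest. Of the 5 that were tested, 3 were called lower than PBS in iFTn-M4, 1 in iFTn-R4 and 4 in iFTn-MR4 (edgeR). In each, 0 were called higher, also in iFTn-R4, where the sum lay above PBS. Of all genes 21.4%, 15.4% and 26.3% were called lower there. Ly6g was at 0 in 3 libraries. The 10 T and NK cell markers summed to 6.24 and 7.87 TPM in PBS, 9.77 and 12.2 in iFTn-M4, 22.3 and 10.8 in iFTn-R4, and 7.65 and 5.65 in iFTn-MR4. Cd3e and Cd3d were at 0 in 1 library each. The 4 B cell markers summed to 5.20 to 8.89 TPM in all libraries. The part of these differences in the IRG result was not tested.

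Fold changes against PBS followed transcript length over all genes, with Spearman correlations of 0.39, 0.50 and 0.35 for iFTn-M4, iFTn-R4 and iFTn-MR4 as a description. Effective lengths of the 7 genes ran from 1430 bases for Ifi47 to 3202 for Irgm2. With the length trend removed, Igtp in iFTn-M4 differed from PBS by -4.43, Irgm2 by -2.75 and Ifi47 by -1.38. In iFTn-R4 the call of Ifi47 was then lost (-0.63, edgeR adjusted p = 0.0516).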

How the data were processed

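Per the labels' protocols, mRNA selected with oligo-dT was sequenced from DNA nanoballs. Reads were processed with HISAT2 2.1.0, Bowtie2 2.2.5 and RSEM 1.2.8 on GRCm38.p6, per the submitters' processing notes. The authors deposited expected counts, which may be fractions where reads fit several transcripts, and FPKM and TPM values of the same genes, in 2 tables. Whether counting used strand is not given in the sources used here, so reads of overlapping or antisense genes may be mixed. Of the expected counts 5.09% were not whole.

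Expected counts were rounded and fitted in edgeR 4.0.16 (R 4.3.3; filterByExpr, TMM factors, quasi-likelihood test, all 8 libraries, 1 mean per group). Tests were 2-sided, with Benjamini-Hochberg adjustment over 13953 genes and a threshold of 0.05. CPM used TMM-scaled library sizes, and centred profiles a prior count of 2. TPM as deposited served for levels between genes. SE is the log2 fold change over the square root of F. Alternatives used DESeq2 1.42.0, limma-trend (limma 3.58.1) on log2(TPM + 1), log2(TPM + 0.1) and log2(FPKM + 1), other scalings and filters, a length offset (spline with 4 degrees of freedom), a replicate block and each library left out. The fit was tested on simulated data. With groups of 2, no exact permutation test can reach the threshold.

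Named were the 7 genes, every tested gene of the lists of other IRG and interferon gamma signalling genes, the 3 genes of lowest adjusted p of each other list, and the nearest profiles; 2 genes that this rule names are not reported here. The genes, lists and tests were chosen with earlier results of these data known. Genes were matched to RefSeq tables by identifier and symbol; 6 of the 7 had a promoter there, and chromosome 18 was left out of the search.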

Additional observations from a re-analysis of the deposited data

How the results depend on the processing

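Against PBS, the count of the 7 genes called stayed within 1.5 times its value in each setting tried (4 to 7 of 7 in iFTn-R4, 7 in iFTn-M4 and iFTn-MR4 with any library left out). For iFTn-R4 against iFTn-M4, 4 to 7 genes were called with 1 library left out, 4 of them without iFTn-M4 replicate 2. For iFTn-MR4 against iFTn-M4, edgeR called 0 with all libraries. It called 1 with library sizes alone (73 of all genes) and 4 with only the groups compared (714 of all genes). DESeq2 called 3 (353 of all genes), and the edgeR count also moved without either iFTn-R4 library. The cause was not tested. Of 13953 genes, calls in that comparison went from 51 to between 2 and 714, in iFTn-R4 against iFTn-M4 from 827 to between 60 and 1398, in iFTn-R4 against PBS from 4096 to 2055 at the lowest, in iFTn-M4 against PBS from 5745 to 3560 and in iFTn-MR4 against iFTn-R4 from 3801 to 1635. Of 894 log2 fold changes of the 7 genes under alternatives, 858 kept direction and call, 17 gained and 18 lost a call.

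Same-numbered replicates had correlations of their deviations of 0.0034 to 0.236, all positive but not all above 0.1. The highest was that of PBS with iFTn-R4. Whether same-numbered replicates share more than a number cannot be told from so few libraries a group. With the replicate block, 1 of 7 genes was called for iFTn-MR4 against iFTn-M4 (271 of all genes), and 7, 5, 7, 7 and 7 in the other comparisons, as without it.

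Signs turned for 1 of the 7 genes: Tgtp1 in iFTn-R4 against PBS was 0.011 without iFTn-R4 replicate 1 and -1.0 without replicate 2, the ends of its range. The other turned signs belong to list genes near 0 against PBS, and the cause was not tested. With the length offset, and with replicate block and offset, they were -0.24 and -0.24 for Irgq, 0.16 and 0.16 for Ifngr2 and -0.17 and -0.17 for Traf6 in iFTn-M4; -0.23 and -0.24 for Irgq, -0.19 and -0.19 for Jak2 and -0.055 and -0.055 for Traf6 in iFTn-R4; and -0.019 and -0.017 for Irgq, 0.023 and 0.023 for Atg5 and -0.18 and -0.18 for Traf6 in iFTn-MR4. With library size alone, Ifngr2 in iFTn-M4 was 0.0012 and Ifngr1 in iFTn-MR4 -0.0083. In limma-trend on TPM with pseudocounts of 1 and 0.1, Ifngr2 was 0.16 and 0.16 in iFTn-M4 and 0.13 and 0.13 in iFTn-R4, and Atg5 in iFTn-R4 0.084 and 0.087. On FPKM Ifngr1 in iFTn-MR4 was -0.020. With 1 library left out, values spanned 0 for Gm5431 (-0.45 to 0.024), Irgq (-0.068 to 0.10, and -0.018 without PBS replicate 1) and Ifngr2 (-0.061 to 0.021) in iFTn-M4. They did so for Irgq (-0.046 to 0.17) and Jak2 (-0.049 to 0.071) in iFTn-R4, and for Ifngr1 (-0.0078 to 0.069) and Traf6 (-0.016 to 0.12, and -0.013 without PBS replicate 2) in iFTn-MR4.

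With 2 libraries a group, the test had 4 residual degrees of freedom, beside 5.63 prior degrees of freedom taken from the spread of all genes. The lowest of the 7 genes, Ifi47, and the split Tgtp pair had the widest errors.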
